A study of Agaricus blazei with 33 samples.

Results

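The genes A09042 and A05683 of Agaricus blazei, a cultivated mushroom, are 2 of the 10 genes whose Pfam description in the deposited table names a polysaccharide deacetylase domain (PF01522), among 10337 genes listed in all. They were chosen by their measured levels, A09042 because it was high in stipes at the harvest stage and A05683 because it was high in pilei at maturation, so their levels in those tissues are a description and were not tested. All libraries came from the strain JA. The table holds 33 RNA-seq libraries, 3 for each of 11 conditions. These are mycelia taken 20 days after casing, which is the layer of soil put on the compost to start fruiting, primordia (the pinhead stage, before the velum has formed), and the whole fruit body, the pileus (cap) and the stipe (stalk) at the button, harvest and maturation stages. Nothing in the labels says whether the 3 libraries of a condition came from separate fruit bodies, so the p-values below measure the spread between libraries, which may be technical.

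Polysaccharide deacetylases remove acetyl groups from sugar polymers. The fungal members best known are chitin deacetylases, which turn part of the chitin of the cell wall into chitosan as it is laid down by chitin synthases. In baker's yeast this takes place in the wall of the spore, and in the human pathogen Cryptococcus neoformans in the wall of growing cells. The same domain occurs in enzymes that act on other acetylated polymers, and which polymer A09042 or A05683 acts on is not annotated. In a mushroom of this kind the stipe lengthens as the fruit body opens, while the gills under the pileus carry the basidia, in which meiosis takes place and spores form.

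A09042 lies on contig 7 of the assembly of JA-15036, a strain grown from a single spore of JA, from 1868657 to 1870074 on the plus strand. Its listed gene length is 762 bases, which would be 254 codons if all of it is coding, and the labels do not say so. A05683 lies on contig 2 from 691941 to 693617 on the minus strand, with a listed gene length of 1317 bases, or 439 codons on the same reading. PF01522 was the only domain listed for either gene, and no other listed gene overlapped them on either strand.

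The levels are FPKM as deposited, which are read counts scaled to the length of the gene and to the size of the library. Between 15573864 and 21454052 reads on genes stood behind each library. Because the tissue labels carry the results, each library of the 3 fruit body stages was compared with the mean profile of the pilei and of the stipes of its stage over 9439 genes, without the deacetylases and without itself. Button stipe 1 correlated more with the button pilei (r = 0.946) than with the other button stipes (0.932). Maturation pileus 3 correlated more with the maturation stipes (0.945) than with the other maturation pilei (0.893). The other 16 pileus and stipe libraries correlated more with their own tissue. Genes are not independent replicates, and these correlations only describe the libraries. The whole fruit bodies were mixed, since button fruit body 2 and maturation fruit body 1 were most like stipes (differences of -0.0999 and -0.104 between the correlation with pilei and that with stipes) and maturation fruit body 3 was most like pilei (0.153).

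The tissue labels were also checked with 6 genes chosen by domains found in proteins of meiosis (HORMA, Spo11, Mnd1 and Hop2). A domain alone does not show that a gene acts in meiosis. None of the 6 was at 0 in a pileus or stipe library. Their summed level was 777, 663 and 282 FPKM in the 3 maturation pilei and 207 to 226 in the maturation stipes. It was 316 to 410 in harvest pilei and 193 to 250 in harvest stipes, and the ranges overlapped at the button stage (260 to 283 in pilei, 226 to 324 in stipes). The sum of maturation pileus 3 was closer to those of the stipes than to those of the other 2 pilei. Much of it came from the HORMA genes A03768 and A04333 (89.7 and 96.1 FPKM), whose ranges in maturation pilei and stipes overlapped. Single genes differed, since the Mnd1 gene A01318 was at 12.0 FPKM in that library, against 1.08 to 1.32 in the maturation stipes and 102 or more in the other maturation pilei. The Spo11 gene (11.3 against 2.71 to 4.52 in stipes) and a predicted HORMA gene (32.1 against 17.5 to 20.0) were also above every maturation stipe there. The Hop2 gene was not (40.6 against 36.3 to 45.9). The main results that rest on button stipe 1 or maturation pileus 3 are given with and without them.

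**Figure D1:**
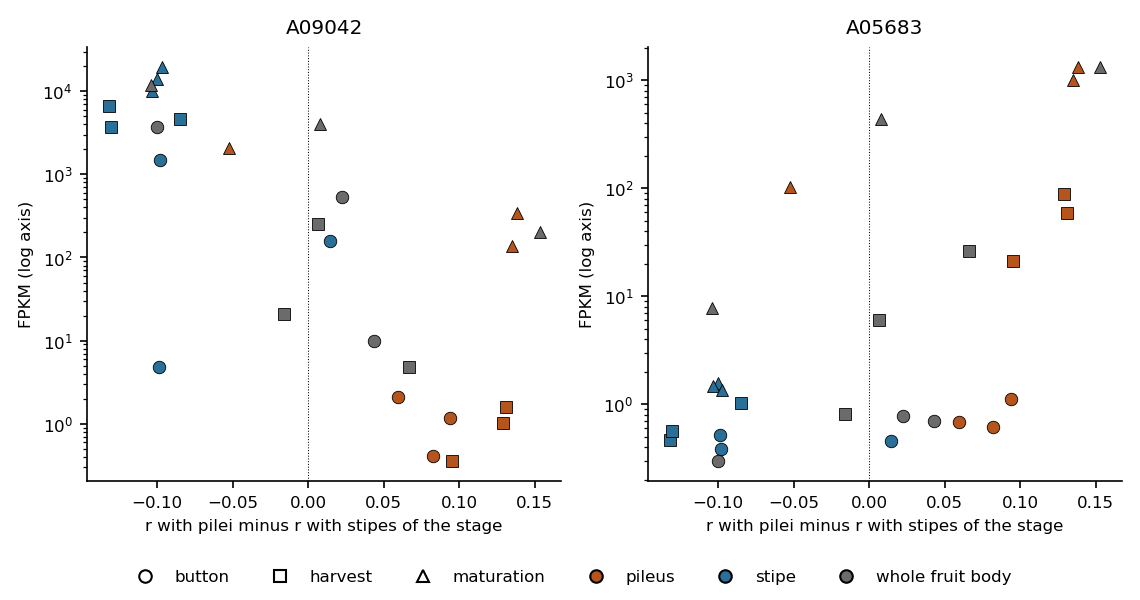
FPKM on a log axis of A09042 (left) and A05683 (right) in the 27 libraries of the 3 fruit body stages, against the correlation of a library with the pilei minus that with the stipes of its stage. Colours stand for pileus, stipe and whole fruit body and shapes for the stage, and the orange triangle left of 0 is maturation pileus 3.

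A09042 ranged from 0.353 FPKM, or 5 reads, in harvest pileus 2 to 19709.6 FPKM, or 235425 reads, in maturation stipe 3. Although it was picked for the harvest stipes, its highest condition was the maturation stipe, with 13861, 10051 and 19709.6 FPKM. There it stood at rank 3, 3 and 2 of the 10337 genes and took 0.651 to 1.21% of the reads on genes. In harvest stipes it reached 6571, 3726 and 4608 FPKM and stood between rank 10 and rank 17. The 3 harvest stipes lay close together, at 4968 ± 1457 FPKM (SD, n = 3), and below each of the maturation stipes.

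The button stipes were far apart, at 159, 4.77 and 1481 FPKM, and the lowest of them was below the highest of the 3 primordia. That lowest library was button stipe 2, which correlated more with the other button stipes (r = 0.970) than with the button pilei (0.871). Button stipe 1, the library more like the pilei, was the one at 159 FPKM. In button pilei A09042 was at 2.07, 0.414 and 1.18 FPKM, and in harvest pilei at 1.02, 0.353 and 1.58 FPKM. These 6 were the lowest libraries of all 33, with 5 to 35 reads each. In maturation pilei the gene was at 347, 138 and 2090 FPKM, and the highest of these is maturation pileus 3, the library most like a stipe. The other maturation pilei were still above every button and harvest pileus.

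The whole fruit bodies varied widely within a stage. A09042 was at 527, 3759 and 9.96 FPKM in button fruit bodies, at 4.78, 20.8 and 253 FPKM in harvest fruit bodies and at 11867, 4064 and 205 FPKM in maturation fruit bodies. At the button and maturation stages the highest of the 3 was the fruit body most like a stipe. At harvest it was not, since harvest fruit body 2 was the most like a stipe (-0.0159) and had 20.8 FPKM, while harvest fruit body 3 (0.0068) had 253 FPKM. Mycelia had 9.04, 5.85 and 3.998 FPKM and primordia 3.07, 24.7 and 8.02 FPKM. In the order of the condition means, the ranges of neighbours overlapped in every step but 1, from mycelia down to button pilei.

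A05683 was nearly silent over most of development. It was under 2 FPKM, with 7 to 36 reads, in 22 of the 33 libraries, which were all mycelia, primordia, button libraries and stipes, and harvest fruit body 2. In maturation pilei it was at 1334, 1015 and 102 FPKM, which placed it at rank 72, 118 and 2086 of the 10337 genes. The lowest of these is maturation pileus 3. Harvest pilei had 88.6, 21.2 and 59.6 FPKM, all below the maturation pilei.

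The stipes stayed low at all stages. A05683 was at 0.455, 0.517 and 0.383 FPKM in button stipes, at 0.472, 0.562 and 1.02 FPKM in harvest stipes and at 1.58, 1.48 and 1.36 FPKM in maturation stipes. Button pilei, at 0.685, 0.616 and 1.12 FPKM, were near the stipes and not near the pilei of the later stages. The low levels outside the opened fruit body were alike, at 0.504, 1.43 and 0.822 FPKM in mycelia, 0.603, 0.629 and 0.717 FPKM in primordia and 0.776, 0.296 and 0.705 FPKM in button fruit bodies. Whole fruit bodies of the later stages had 26.2, 0.816 and 6.001 FPKM at harvest and 7.72, 436 and 1331 FPKM at maturation. The highest of all 6 was maturation fruit body 3, the library most like a pileus, and the lowest at maturation was the library most like a stipe. In the order of the condition means of A05683, the ranges of neighbours overlapped in every step.

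**Figure D2:**
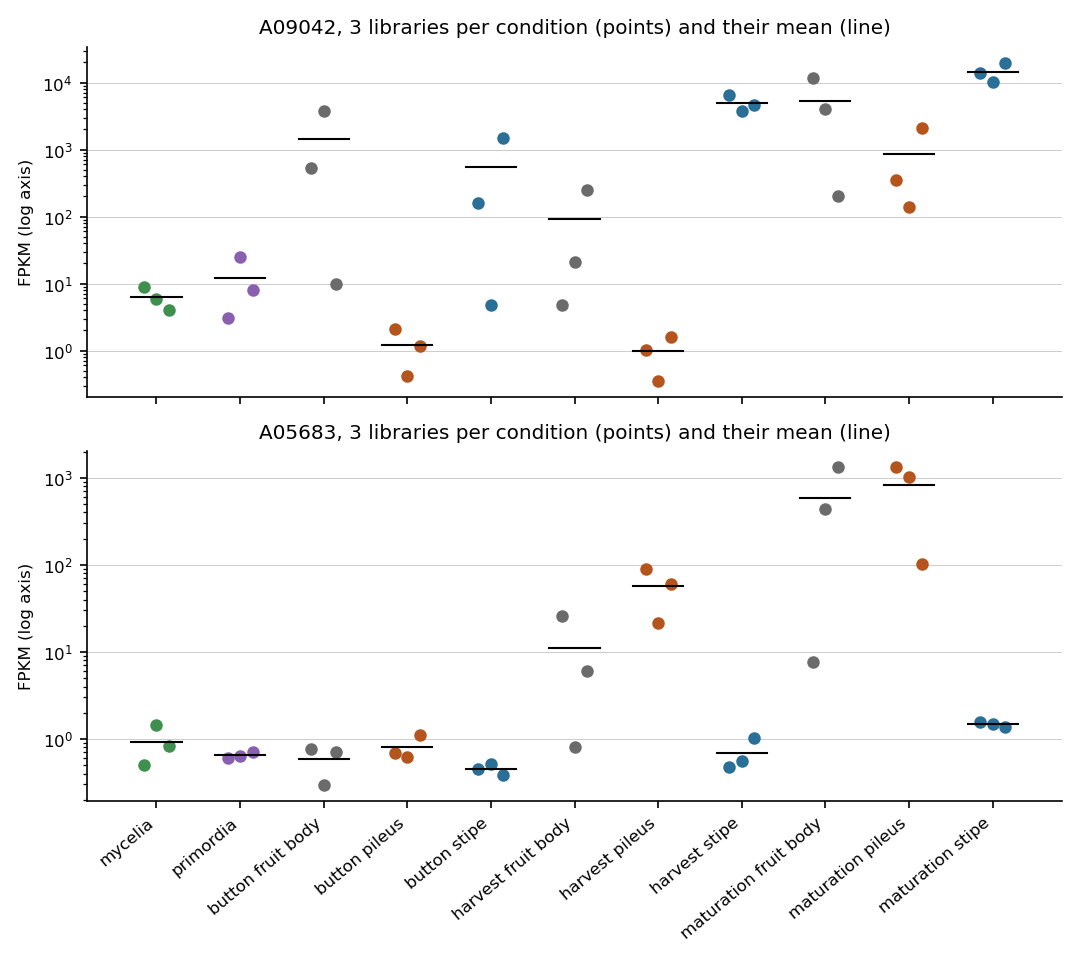
FPKM of A09042 (top) and A05683 (bottom) on log axes in the 11 conditions, with 1 point per library and a line at the mean of 3. A09042 is at 3726 FPKM or more in all harvest and maturation stipes, and A05683 at 21.2 FPKM or more in all harvest and maturation pilei.

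Between the 2 genes, the order turned with the tissue. A09042 was 4500 to 13936 times A05683 in harvest stipes and 6777 to 14532 times in maturation stipes, while A05683 was 37.8 to 87.3 times A09042 in harvest pilei. The lower gene had few reads there, so these ratios are rough. A05683 had 9 to 24 reads in harvest stipes and 28 to 35 in maturation stipes, and A09042 had 5 to 22 in harvest pilei. In maturation pilei A05683 was 3.85 and 7.34 times A09042 in libraries 1 and 2, and in library 3 A09042 was 20.4 times A05683. The maturation fruit bodies spanned the same range, since A09042 was 1537 times A05683 in library 1 and 9.33 times in library 2, and A05683 was 6.49 times A09042 in library 3. In bulk tissue, fewer cells of a type and less RNA per cell cannot be told apart. Over the 33 libraries the log2 levels of the 2 genes had a Pearson r of 0.03, which describes libraries that share conditions and tissues.

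At the stages that the choice of the genes used, the differences between tissues are given without a test. A09042 was 5058 times higher in harvest stipes (4968 FPKM) than in harvest pilei (0.982 FPKM), and 16.9 times higher in maturation stipes (14540.4 FPKM) than in maturation pilei (858 FPKM). Without maturation pileus 3, which alone held most of the level of the pilei, the latter ratio was 59.9. A05683 was 82.4 times higher in harvest pilei (56.5 FPKM) than in harvest stipes (0.686 FPKM), and 555 times higher in maturation pilei (817 FPKM) than in maturation stipes (1.47 FPKM), or 797 times without maturation pileus 3. The ratios of 5058, 82.4, 555 and 797 divide by levels that rest on the few reads given above, so their size is rough. From harvest to maturation, A09042 was 2.93 times higher in stipes and A05683 14.5 times higher in pilei, or 20.8 times without maturation pileus 3. Over all genes tested in these stages, 16.7% were called higher and 14.9% lower in harvest pilei than in stipes, and 13.6% higher and 11.5% lower at maturation. At harvest these were 1558 and 1391 genes, or 2302 and 937 with library totals. A gene was called where limma, fitted to log2(FPKM + 0.1) over all genes averaging 0.5 FPKM or more, gave a p below 0.05 after adjustment and a log2 fold change of 1 or more in either direction.

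At the button stage the choice had not used the libraries compared, but the estimate of the spread in this fit came from all 18 pileus and stipe libraries, those of harvest and maturation included. A09042 was lower in button pilei than in button stipes, and the 3 pilei (at most 2.07 FPKM) did not overlap the 3 stipes (at least 4.77 FPKM). The log2 fold change was -6.54 (SE 1.46, 95% interval -9.65 to -3.43), and limma with Benjamini-Hochberg adjustment gave an adjusted p of 0.00441. In that comparison 7.91% of all genes tested were called higher and 9.96% lower in the pileus (739 and 930 genes, or 974 and 744 with library totals). Without button stipe 1 and maturation pileus 3 the log2 fold change was -6.24 (limma adjusted p = 0.00382). A fit of the 6 button pileus and stipe libraries alone, added after seeing the data, gave the same fold change with a larger standard error of 1.99 and an adjusted p of 0.0489. With limma's voom on the reads recovered from the FPKM it was -6.65 but no longer passed (adjusted p = 0.0956).

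A05683 was not called at the button stage. Its pilei lay above its stipes, at 0.806 ± 0.271 against 0.452 ± 0.067 FPKM (SD, n = 3), with no overlap. The log2 fold change was 0.68 (SE 0.73, 95% interval -0.87 to 2.24, limma adjusted p = 0.494). With the 6 button libraries alone the standard error was 0.34 (limma adjusted p = 0.152).

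Neither gene passed the test between mycelia and primordia, or between primordia and button fruit bodies. From mycelia to primordia the log2 fold change was 0.51 for A09042 (SE 0.69, limma adjusted p = 0.535) and -0.34 for A05683 (SE 0.39, adjusted p = 0.464), the latter turning to 0.052 with quantile normalization. In this comparison 15.1% of genes were called higher and 22.5% lower in primordia, or 1431 and 2130 genes, and with quantile normalization 1897 and 1763 or with library totals 2286 and 1595. From primordia to button fruit bodies A09042 had a log2 fold change of 4.98, but with a standard error of 2.10 and an interval from -0.09 to 10.05 (limma adjusted p = 0.415). A05683 had a log2 fold change of -0.19 (SE 0.40, adjusted p = 0.894). Only 0.0216% of genes were called higher and 0.0108% lower there, which is 3 genes in all, against 1141 at an unadjusted p under 0.05. With the replicate number as a block 0 genes were called.

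The whole fruit bodies differed between stages by large factors, but varied as much within a stage. From button to harvest, the log2 fold change was -3.20 for A09042 (SE 2.39, limma adjusted p = 0.577) and 3.01 for A05683 (SE 1.84, adjusted p = 0.485). The 3 harvest fruit bodies lay above the 3 button fruit bodies in A05683, the lowest by little (0.816 against 0.776 FPKM). In this comparison 0.0751% of genes were called higher and 0.161% lower (7 and 15 genes, or 2 and 18 with library totals). From harvest to maturation it was 6.18 for A09042 (SE 2.39, 95% interval 0.72 to 11.64, limma adjusted p = 0.107) and 4.97 for A05683 (SE 1.84, 95% interval 0.77 to 9.18, adjusted p = 0.0963). Here 6.93% of genes were called higher and 6.46% lower.

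These last values depended on single libraries. Without maturation fruit body 1, the library most like a stipe, A05683 passed at a log2 change of 7.17 (limma adjusted p = 0.0123). Without maturation fruit body 3, the library most like a pileus, A09042 passed at 7.88 (limma adjusted p = 0.0472). Both genes also passed when all 33 libraries shared 1 estimate of the spread (limma adjusted p = 0.0101 for A09042 and 0.00261 for A05683). The part of the mixture of tissues in these whole fruit bodies was not tested.

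**Figure D3:**
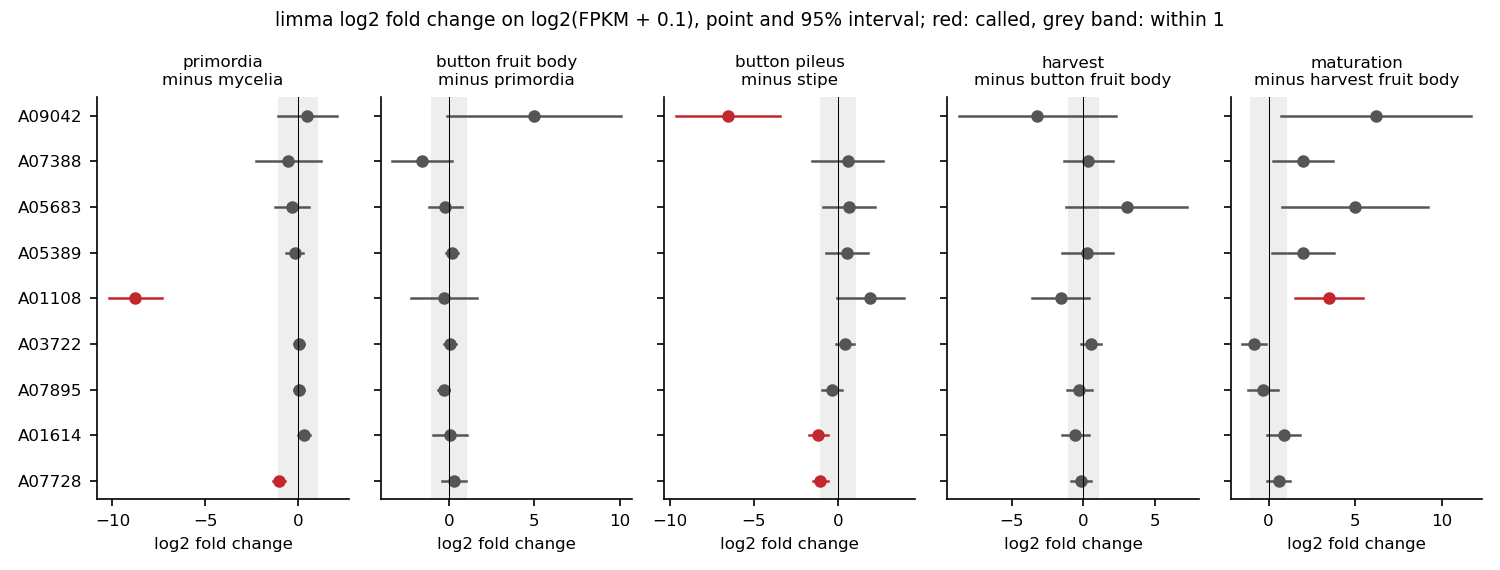
Log2 fold changes from limma on log2(FPKM + 0.1) with 95% intervals for 9 of the 10 deacetylase genes in 5 comparisons. Red marks called genes and grey the others, and the band covers changes of less than 1, with A09042 called only between button pileus and stipe and A05683 in none.

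The other 8 genes with PF01522 had levels of several kinds. A07388 (contig 4, 1541433 to 1542714) had its highest mean in maturation stipes, as A09042 did. It was at 766, 942 and 3418 FPKM in maturation stipes and at 199, 101 and 1549 FPKM in maturation pilei, of which the highest is again maturation pileus 3. In harvest stipes it was at 244, 124 and 1155 FPKM against an average of 23.1 FPKM in harvest pilei. The log2 fold change for pileus minus stipe was -4.10 (SE 0.99, limma adjusted p = 0.00352), and -3.19 without harvest stipe 3, which held most of the level of the stipes. Unlike A09042 it was also high in mycelia, at 271 ± 170 FPKM. At maturation the log2 change was -2.10 (limma adjusted p = 0.0982), which passed without button stipe 1 and maturation pileus 3 (-3.25, adjusted p = 0.00448).

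A05389 (contig 27, 184299 to 185959) was the one most like A05683. Its 3 maturation pilei had 423, 316 and 38.8 FPKM, of which the lowest is maturation pileus 3, against 24.2 to 27.2 FPKM in maturation stipes. The log2 fold change was 2.77 (SE 0.58, limma adjusted p = 0.00204), or 3.85 without the libraries that stood apart (adjusted p = 1.69e-09). Its lowest library was at 19.0 FPKM, so it was never near 0 as A05683 was, and at harvest it was not called (log2 fold change 0.41, adjusted p = 0.57). Over the 33 libraries its log2 level had an r of 0.89 with A05683, while A07388 and A01614 had 0.66 and 0.67 with A09042.

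A01108 (contig 12, 1256649 to 1258176) belonged to the mycelium. It was at 1021 to 2572 FPKM in mycelia and at most 17.7 FPKM in any other library. From mycelia to primordia its log2 fold change was -8.77 (SE 0.61, limma adjusted p = 1.89e-05), a ratio of means of 385. It was called again as higher in maturation than in harvest fruit bodies, at 10.4 against 1.17 FPKM (log2 fold change 3.48, SE 0.86, adjusted p = 0.0299), a call that did not hold without maturation fruit body 2 (adjusted p = 0.105), harvest fruit body 1 (0.0525) or harvest fruit body 3 (0.0718). A01986 (contig 15, 741053 to 742230) was likewise a gene of mycelia, at 5.36 to 7.17 FPKM or 57 to 68 reads there, against 0 or 1 read in each of the primordia. It passed the filter only in that comparison, through its level in mycelia. It was called lower in primordia, but the size of the fitted change is set by the pseudocount (-7.33 with 0.01 and -2.81 with 1). It was listed at 0 in 17 libraries and was at most 0.537 FPKM outside mycelia.

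The remaining 4 genes varied less, by 1.97 to 2.96 times between their highest and lowest condition means. A03722 (contig 1, 1599506 to 1602557), which also holds a nucleosome assembly protein domain, was at 215 to 425 FPKM on average in every condition and was called in none of the 7 comparisons as fitted. A07895 (contig 5, 1406426 to 1408386) was higher in maturation pilei than in stipes, at 140.5 against 60.4 FPKM (log2 fold change 1.09, SE 0.28, limma adjusted p = 0.00715), and fell short of the threshold of 1 without maturation pileus 1 (0.79) or 2 (0.96), while without button stipe 1 and maturation pileus 3 the change was 1.53. A01614 (contig 14, 1225000 to 1226914) was lower in button pilei than in stipes, at 14.3 against 33.8 FPKM (log2 fold change -1.16, SE 0.27, limma adjusted p = 0.00526), and fell short without button stipe 3 (-0.95) and with library totals (-0.98). A07728 (contig 5, 827138 to 838093), a gene with 5 listed domains including an actin-binding one and a carboxylesterase, fell by 1.03 on the log2 scale from mycelia to primordia (SE 0.13, limma adjusted p = 0.00036) and was also lower in button pilei (-1.03, SE 0.22, adjusted p = 0.00315). Both its values were close to the threshold of 1, and they fell short of it without mycelia 3 (-0.92) in the former and without button stipe 2 (-0.84) or 3 (-0.93) in the latter. The call in primordia also fell short with a pseudocount of 1 (-0.98), quantile normalization (-0.94), median-ratio scaling (-0.99) and library totals (-0.68), and that in button pilei with a pseudocount of 1 (-0.99) and library totals (-0.86). Without button stipe 1 and maturation pileus 3, the button changes were -1.51 for A01614 (limma adjusted p = 2.58e-05) and -1.34 for A07728 (7.5e-07).

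**Figure D4:**
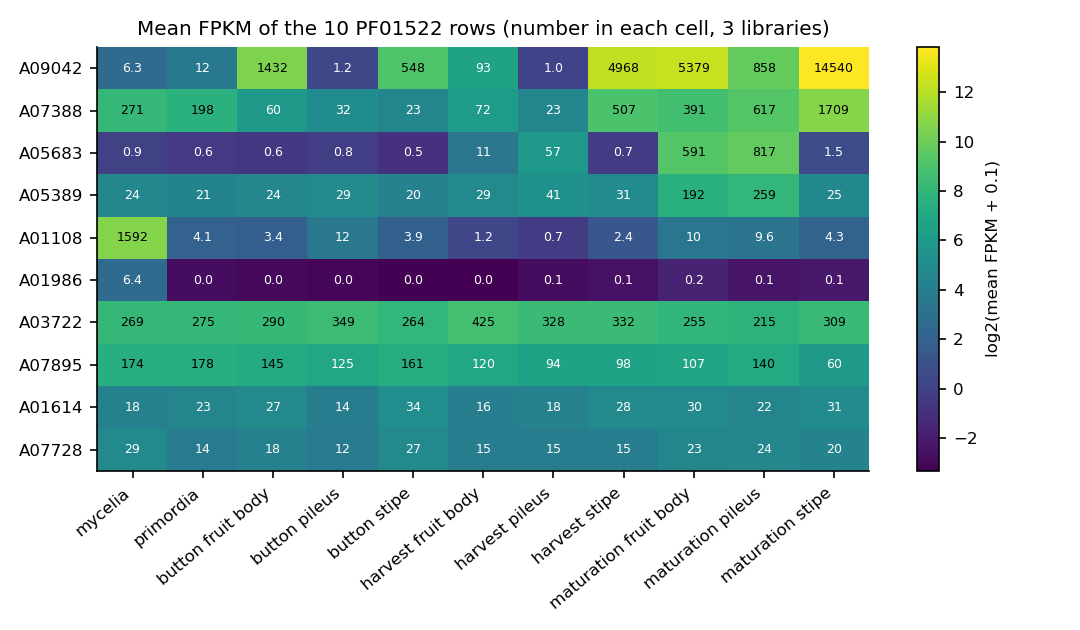
Mean FPKM over 3 libraries of the 10 genes with PF01522 in the 11 conditions, written in each cell, with the colour on the scale log2(mean FPKM + 0.1). A09042 and A05683 have their highest means in maturation stipes (14540.4) and maturation pilei (817), and A01108 in mycelia (1592).

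Over these 8 genes, 0 were called higher and 3 lower in primordia than in mycelia (15.1 and 22.5% of all genes tested), and 1 of the 3 is A01986, which passed the filter only through mycelia. From primordia to button fruit bodies (0.0216 and 0.0108% of all genes) and from button to harvest fruit bodies (0.0751 and 0.161%) 0 were called in either direction, and 1 was called higher and 0 lower from harvest to maturation (6.93 and 6.46%). Between pileus and stipe, 0 were called higher and 2 lower in the button pileus (7.91 and 9.96%), 0 higher and 1 lower in the harvest pileus (16.7 and 14.9%), and 2 higher and 0 lower in the maturation pileus (13.6 and 11.5%). With 8 genes, nothing was read from these counts beyond the shares over all genes. The median log2 fold change was -0.35 from mycelia to primordia (-0.04 over all genes tested) and 0.87 from harvest to maturation fruit bodies (0.05). In the 3 comparisons of pileus with stipe it was 0.41, -0.04 and 0.25 from button to maturation, against 0.01 over all genes at each stage.

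Beside them, 23 genes were read whose domains occur in enzymes that make or break chitin. The enzyme names below are those of the domain families, and what these genes act on was not tested. Some list other domains too, such as A07139 with a PX domain. The highest gene of each domain, by its average over the 33 libraries, was A04220 (236 FPKM on average), a chitin synthase of the family with PF01644 and PF08407, A03208 (210 FPKM), a chitin synthase with PF03142, A01765 (292 FPKM), a chitinase of glycosyl hydrolase family 18, and A06904 (46.8 FPKM), a hexosaminidase of family 20. No row analysed here carried a chitosanase or a chitin-binding domain from the list.

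The chitinase A01765 differed between tissues in the direction of A09042. It was at 24.4 FPKM in harvest pilei against 360 in harvest stipes (log2 fold change -3.98, SE 0.61, limma adjusted p = 0.000211), and at 96.8 against 1007 FPKM at maturation (-3.44, SE 0.61, adjusted p = 0.000698). It was also the only gene of the 23 called at the button stage (-2.54, SE 0.61, limma adjusted p = 0.00684). Without button stipe 1 and maturation pileus 3 the change was -3.42 at the button stage (limma adjusted p = 1.97e-05) and -3.76 at maturation (4.44e-06). Another member of family 18, A07139, was higher in the pileus. It had 390 FPKM in maturation pilei against 29.7 in stipes (3.30, SE 0.80, limma adjusted p = 0.00489, or 4.19 and 1.31e-08 without those libraries) and 217 against 42.8 FPKM at harvest (2.27, SE 0.80, adjusted p = 0.0277). The call at harvest did not hold when harvest pileus 1 or 3 or any harvest stipe was left out, with adjusted p of 0.0586 to 0.0807. A00935, also of family 18, fell by 2.07 on the log2 scale from harvest to maturation fruit bodies (SE 0.39, limma adjusted p = 0.0132), a call lost without maturation fruit body 2 (adjusted p = 0.0553) or harvest fruit body 3 (0.0545).

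Of the 23 genes, 4 were called higher and 3 lower in harvest pilei than in stipes (16.7 and 14.9% of all genes tested), and 3 higher and 2 lower at maturation (13.6 and 11.5%). In harvest stipes the higher ones included the chitin synthase A03208, with 290 against 101 FPKM (pileus minus stipe -1.53, SE 0.20, limma adjusted p = 7.8e-05). From mycelia to primordia 3 were called higher and 6 lower (15.1 and 22.5% of all genes), led by A07139 (1.60, SE 0.14, limma adjusted p = 5.95e-05, but 0.131 with all 33 libraries in 1 fit) and the chitinase A07838 (-1.86, SE 0.21, adjusted p = 0.000173). Only A01765 was called, as lower, in button pilei (9.96% of all genes), 0 genes were called from primordia to button or from button to harvest fruit bodies, and 3 were called higher and 2 lower from harvest to maturation (6.93 and 6.46%). One of these 3, A07838 (log2 fold change 1.63, limma adjusted p = 0.0328), lost its call in 7 of 16 alternatives, with adjusted p up to 0.114. Nothing was read from these counts beyond the shares over all genes. The median of the list was within 0.26 of 0 on the log2 scale in all 7 comparisons, where that of all genes was within 0.05.

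The genes with levels most like each of the 2 deacetylases were found by the Pearson correlation of log2(FPKM + 0.1) over the 33 libraries, among 9448 genes. Libraries of a condition share its tissue and stage, and the correlations are a description. For A09042 these were a gene predicted from the reads on contig 1 (3176637 to 3177411, r = 0.89), A00750 (0.88), another predicted gene on contig 29 (41864 to 44603, 0.88), A04297 (0.88) and A09038 (0.88). Each moved over a narrower range than A09042, from 27.0 to 145 FPKM in A00750 and from 21.4 to 3988 in the predicted gene on contig 1. A09038, a transporter of the major facilitator superfamily, is on the same contig as A09042, 10108 bases before it with 3 genes between, and averaged 196 FPKM in maturation stipes and 27.2 in maturation pilei. A04297, from 3177709 to 3178726, lies next to the predicted gene on contig 1. Both were highest in maturation pileus 3. In maturation stipes the predicted gene averaged 2273 FPKM and A04297 1969, against 1413 and 1109 in maturation pilei. A00750 also differed little, at 105 against 72.6 FPKM. The predicted gene on contig 29 differed more, at 29.6 against 2.99 FPKM.

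For A05683 the Pearson correlations were higher, but the gene was under 2 FPKM in 22 of the 33 libraries. The most alike genes included a predicted gene on contig 10 (725778 to 727895, r = 0.98), with an RNA recognition motif, A00164 (0.97), with a fasciclin domain known from cell adhesion proteins, A03674 (0.97) and A00959 (0.96). These 4 had their highest level in maturation pileus 1. A00164 averaged 983 FPKM in maturation pilei and 2.30 in maturation stipes, and A03674 averaged 6438 and 24.9 FPKM. The Spearman correlation over the 11 condition means ordered the genes otherwise. It was 0.70 for the predicted gene and 0.56 for A03674, but 0.99 for A00164 and 0.92 for A00959. For the 5 genes most like A09042 it was 0.84 to 0.95.

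The genes next to each deacetylase had much narrower ranges. A09040, which ends 1349 bases before A09042 and is described as a transporter of the major facilitator superfamily, was at 1.33 to 26.7 FPKM over the 33 libraries, and A09043, 370 bases after it on the other strand, at 37.8 to 101 FPKM. A05682, a protein kinase 494 bases from A05683, was at 30.4 to 151 FPKM, and A05684, 799 bases away on the other side, at 55.3 to 94.1 FPKM. Their correlations with the deacetylase beside them were 0.29, 0.22, -0.03 and -0.09 in that order.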

How the data were processed

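RNA was sequenced on an Illumina HiSeq system. The authors trimmed adapters and reads of low quality, aligned clean reads to the genome of JA-15036, a strain grown from a single spore of JA, with Hisat2, predicted further genes with StringTie and counted reads per gene with featureCounts 1.5.0-p3. The deposited values are FPKM that the authors made from these counts. The handling of strand and of multiply aligned reads and the FPKM formula were not given in the sources used here. FPKM times gene length gave whole multiples of 1 unit per library for 100% of values within 1e-06, so reads were recovered. The deposited FPKM imply a library size of 0.742 to 1.22 times these reads, which means that a scaling factor is part of them. Recovered reads on genes were 15573864 to 21454052 per library. Read numbers show counting error only.

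The values were put on the scale log2(FPKM + 0.1), and genes averaging 0.5 FPKM or more were tested with limma 3.58.1 (R 4.3.3, trend option on). Adjusted p-values are Benjamini-Hochberg values over every gene tested, and a call needed a p below 0.05 after adjustment and a log2 fold change of 1 or more in either direction. Fold changes on this scale understate those of low genes. The fits held 6 libraries for mycelia and primordia, 6 for primordia and button fruit bodies, 9 for whole fruit bodies and 18 for pilei and stipes. The self-test on simulated data recovered changed genes. Its reads were drawn for each gene separately, with no library mixed between tissues, so it cannot speak for fits that hold such libraries. The members and lists were chosen with earlier results of these data known. Named genes are the 2 deacetylases, the other 8 genes with PF01522, the 5 genes most like each member and, in the chitin list, the extremes among called genes in each comparison and the highest gene of each domain. Of the 5 genes most like A05683, 1 is not reported here.

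Deviations from the group means were correlated between same-numbered libraries, which no label pairs. Only in primordia and button fruit bodies were all 3 correlations over the limit of 0.1 (0.130, 0.301 and 0.130). Between these 2 conditions the replicate block left 0 of 3 calls. Single replicates passed 0.1 elsewhere, as in harvest and button fruit bodies (0.339, 0.341 and 0.0166) and in primordia and mycelia (0.152, 0.127 and 0.0330). Alternatives were pseudocounts of 1 and 0.01, no filter or one at 5 FPKM, quantile, median-ratio and library-total scaling, no trend, all 33 libraries in 1 fit, the replicate block, voom on recovered reads and each library left out in turn. Leaving out button stipe 1 and maturation pileus 3 together, and fitting the 6 button pileus and stipe libraries alone, were added after seeing the data.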

Additional observations from a re-analysis of the deposited data

Results flagged for a closer look

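For 2 of the other deacetylase genes the difference between pileus and stipe changed from the button to the maturation stage, by a test of that change in the fit of 18 libraries. For A07895 it changed by 1.45 on the log2 scale (SE 0.40, limma adjusted p = 0.0298), from -0.36 at the button stage to 1.09 at maturation. For A07728 it changed by 1.28 (SE 0.31, limma adjusted p = 0.0143), from -1.03 to 0.25. Without button stipe 1 and maturation pileus 3 the changes were 1.75 (limma adjusted p = 7.04e-05) and 1.77 (2.41e-06). That of A07895 no longer passed without button pileus 2 (adjusted p = 0.0663) or 3 (0.0733), button stipe 2 (0.0501), maturation pileus 1 (0.0725) or 2 (0.0745), or maturation stipe 1 (0.0651) or 2 (0.0603), nor with quantile normalization (0.0535) or library totals (0.0873).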

How the results depend on the processing

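For A09042 and A05683, 163 of 172 alternative values in the 5 tested comparisons kept direction and side of the threshold. So did 855 of 922 for the other deacetylase genes and 142 of 157 for the chitin list. Of the condition means 108 of 110, and of the described tissue differences 70 of 72 values, moved by less than 1 SD. Leaving out 1 of 3 libraries cannot move a mean or such a difference by 1 SD, so much of these counts was fixed in advance. The mean of A09042 in button stipes ran from 81.9 to 820 FPKM with 1 library left out. For A09042 in button pileus minus stipe the range was -8.75 to -4.63 (adjusted p 0.000365 to 0.0956), and the call was lost only with voom on the recovered reads (-6.65). For maturation minus harvest fruit body, A09042 (6.18) and A05683 (4.97) passed with all 33 libraries in 1 fit, and leaving out 1 library gave 4.89 to 7.88 for A09042 and 3.47 to 7.17 for A05683. With a pseudocount of 1, the harvest difference of pileus minus stipe was -11.30 for A09042 and 4.89 for A05683. The cause of these shifts was not tested.

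Counts of calls moved most between whole fruit bodies. For button fruit body minus primordia (3 calls) they were 0 without the filter, without the trend and with the replicate block, 32 with all 33 libraries, and 0 to 379 with 1 library left out, the highest without button fruit body 2. For harvest minus button fruit body (22 calls) they were 0 with a pseudocount of 0.01, the replicate block or voom, 6 without the filter, 10 with a filter at 5 FPKM, 11 with quantile normalization, 34 without the trend, 540 with all 33 libraries, and 0 to 3 with 1 library left out. For maturation minus harvest fruit body (1248 calls) they were 2192 with all 33 libraries and 418 to 2047 with 1 left out, the lowest without harvest fruit body 3 and the highest without maturation fruit body 3. Between button pileus and stipe (1669 calls) leaving out 1 library gave 993 to 2427. Leaving out button stipe 1 and maturation pileus 3 gave 2751 calls there and 3589 at maturation. Scaling to library totals shifted the middle of all log2 fold changes (their median) from -0.04 to 0.31 for primordia minus mycelia, from 0.01 to 0.19 and 0.37 for button and harvest pileus minus stipe, and from -0.0042 to -0.15 for harvest minus button fruit body. The replicate block ended the call of A07838 from harvest to maturation fruit bodies (adjusted p = 0.0636), and with it A01108 passed at harvest (-1.78, adjusted p = 0.0498) and A07388 at maturation (-2.10, adjusted p = 0.0174) between pileus and stipe; it changed no other call of a named gene, and in these comparisons the correlations of same-numbered libraries were not all above 0.1.

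Some differences turned direction, and none of them passed the test in either direction. For primordia minus mycelia these were A05683 (0.052 with quantile normalization) and A05389 (0.18 with library totals), and with 1 library left out A09042 (-0.26 to 1.23), A05683 (-0.67 to 0.0031), A07388 (-1.19 to 0.20), A03722 (-0.023 to 0.096), A07895 (-0.027 to 0.10) and A05389 (-0.29 to 0.053). For button fruit body minus primordia library totals turned A03722 (-0.0058) and A01614 (-0.022), and leaving out 1 library gave A03722 -0.0018 to 0.17, A01108 -0.96 to 0.36, A05683 -0.41 to 0.17, A01614 -0.43 to 0.35 and A07728 -0.0058 to 0.56. Between later fruit bodies it gave A07728 -0.42 to 0.14 (harvest minus button) and A07895 -0.72 to 0.13 (maturation minus harvest). For harvest pileus minus stipe, quantile normalization turned A03722 (0.36), A07895 (0.25) and A07728 (-0.13), library totals turned A03722 (0.36) and A07895 (0.33), and leaving out 1 library gave A03722 -0.18 to 0.15, A07895 -0.19 to 0.13 and A07728 -0.022 to 0.072.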

Other observations

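At harvest the whole fruit bodies held far less A09042 than the stipes. Their mean was 1.87% of that of the harvest stipes, and the highest fruit body (253 FPKM) reached 6.78% of the lowest stipe (3726 FPKM). Of the 63 genes with at least 50 FPKM in harvest stipes and a mean at least 16 times that in harvest pilei, 5 had a lower share than A09042, and the median share was 9.04% (0.428 to 49.2%). That mean rests on harvest fruit body 3, and without it the share was 0.257%, with 3 of the 63 genes lower, or 8 and 9 genes without fruit body 1 or 2. The share divides by the level in harvest stipes, for which A09042 was chosen. The 63 genes were chosen from the same stipe and pileus libraries. A low share of A09042 was favoured by its choice, so its place among the 63 is a description and was not tested. The low share was that of harvest only. At the button stage the mean of the fruit bodies was 261% of that of the stipes (1432 against 548 FPKM). At maturation it was 37.0%. The libraries behind these 2 shares were far apart, above all the fruit bodies. For A05683 the harvest fruit bodies had 19.5% of the mean of the harvest pilei, where the median of the 34 genes chosen in the same way for the pileus was 20.9% and 14 of them were lower. Without harvest fruit body 1 it was 6.03%, with a median of 10.7%.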
